A study of Mus musculus with 2 samples.

Results

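Voltage-gated sodium and calcium channel genes were described across the neurons and other cells of the mouse lateral hypothalamic area. Members were all gene symbols starting with Cacn, or with Scn followed by a digit, that had 10 or more unique molecular identifiers (UMIs, each marking 1 captured transcript) summed over both deposited matrices. This rule gave 36 members of the 28692 genes listed. It matched 40 symbols, of which Cacna1f with 4 UMIs, Cacng6 with 5, Scn4a with 0 and Scn10a with 0 stayed outside. Just inside the threshold were Cacng1 with 11 UMIs and Scn11a with 15. The members were 8 sodium pore subunits, 4 sodium β subunits, 6 high-voltage and 3 low-voltage (T-type) calcium pore subunits, 4 α2δ subunits, 4 calcium β subunits and 7 genes of the Cacng family.

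The area was microdissected from brain slices of C57BL/6 mice at postnatal day 30, and dissociated cells went into droplet single-cell RNA sequencing (10x Genomics Chromium, v2 chemistry). The library labelled male pooled 3 animals and the library labelled female pooled 2, and all 5 were littermates with no treatment or allele named. There were 3439 cell barcodes with 23151801 UMIs in the library labelled male, and 3793 with 27437142 in the one labelled female. The labels disagreed with sex-linked transcripts: Xist, made from the inactive X chromosome, had 20641 UMIs under the male label and 30 under the female label. The Y-linked gene Ddx3y had 0 and 4524. Each value below is therefore given for the library labelled male and then for the library labelled female, and no comparison between sexes is made. There is 1 library per label, so a difference between the labels has no test. The libraries shared 18 barcodes.

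Sodium channels open on depolarization and carry the upstroke of the action potential; the pore subunit forms the channel and β subunits set its gating and its place in the membrane. Calcium channels turn depolarization into calcium entry, which drives transmitter release, gene regulation and pacemaking. Their pore subunit (Cacna1 genes) is assembled with a cytoplasmic β subunit (Cacnb) and an extracellular α2δ subunit (Cacna2d), which raises the number of channels at the surface and binds gabapentin in some isoforms. Most Cacng genes, although named as calcium channel γ subunits, encode TARPs, auxiliary proteins that carry AMPA-type glutamate receptors to the synapse. In the lateral hypothalamus, neurons that make orexin (Hcrt) promote wakefulness and neurons that make melanin-concentrating hormone (Pmch) are active in sleep and feeding.

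After filters and doublet removal, 3181 and 3515 cells remained, of which 2039 and 2260 lay in clusters named neuron-like from their markers. Neurons were gated by genes that are not members. The inhibitory gate (Slc32a1, the GABA vesicle transporter, with no Slc17a6) held 986 and 1108 cells. The excitatory gate (Slc17a6, the vesicular glutamate transporter 2, with no Slc32a1) held 709 and 781. Cells with 0.3% or more of their UMIs from Hcrt were called Hcrt-high (83 and 83 cells), and those with 0.3% or more from Pmch were called Pmch-high (86 and 61 cells). Cells of the excitatory gate below 0.3% for both peptides were the other excitatory neurons (598 and 684 cells). The peptide gates set no condition on Slc17a6 or Slc32a1, so they were not subsets of the excitatory gate. Their comparisons with other excitatory neurons therefore also differ in transporter gating, and its part in the differences was not tested. Median UMIs per cell were 7826 and 8250 in inhibitory, 7833 and 8052.5 in other excitatory, 16101 and 18593 in Hcrt-high and 14166.5 and 12947 in Pmch-high neurons. UMIs were summed per library and gate, and a level (CPM) is a gene's UMIs over all UMIs of that sum, scaled to the same total for each sum.

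Promoters of 4 members are shown because their levels separated the gates and their RefSeq start site was also the start of the gene in GENCODE: Cacna2d1 and Cacna2d3, which moved in opposite directions between inhibitory and excitatory neurons, Scn9a, which was higher in each peptide gate than in the other excitatory neurons, and Cacng5, which separated Pmch-high from Hcrt-high neurons. RefSeq promoter entries (build GRCm38.p6) were found for 26 of the 36 members, with 37 start sites in all, and 7 of these start sites were those of GENCODE. Each line gives the 250 bases before the start site, 5′ to 3′ on the gene's strand. Capitals mark every match, on either strand, to 4 motifs: TATAAA of the TATA box, GGGCGG of the GC box, TGACGTCA of the cAMP response element and CAGCACC of the REST site.
Cacna2d1, chr5:15934441-15934690, plus strand: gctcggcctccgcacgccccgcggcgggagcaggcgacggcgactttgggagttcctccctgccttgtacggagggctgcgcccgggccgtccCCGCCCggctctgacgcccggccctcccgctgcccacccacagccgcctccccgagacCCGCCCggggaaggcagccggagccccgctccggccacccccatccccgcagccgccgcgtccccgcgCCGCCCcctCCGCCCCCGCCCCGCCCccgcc
Cacna2d3, chr14:29721865-29722114, minus strand: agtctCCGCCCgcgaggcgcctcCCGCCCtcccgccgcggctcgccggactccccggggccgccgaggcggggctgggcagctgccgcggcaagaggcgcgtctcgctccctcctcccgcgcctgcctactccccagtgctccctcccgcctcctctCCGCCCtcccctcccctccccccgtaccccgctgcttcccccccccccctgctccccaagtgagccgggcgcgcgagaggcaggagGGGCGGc
Scn9a, chr2:66634963-66635212, minus strand: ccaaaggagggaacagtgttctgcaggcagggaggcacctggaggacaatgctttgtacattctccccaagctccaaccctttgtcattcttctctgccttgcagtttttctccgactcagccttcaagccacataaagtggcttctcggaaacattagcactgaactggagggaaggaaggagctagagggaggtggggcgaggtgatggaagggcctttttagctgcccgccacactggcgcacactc
Cacng5, chr11:107915056-107915305, minus strand: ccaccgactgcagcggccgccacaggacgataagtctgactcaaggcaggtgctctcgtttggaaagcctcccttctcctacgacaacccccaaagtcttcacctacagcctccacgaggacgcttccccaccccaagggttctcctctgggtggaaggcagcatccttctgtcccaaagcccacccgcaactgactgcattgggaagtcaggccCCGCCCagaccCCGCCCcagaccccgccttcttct
In Cacna2d1 the capitals are 6 matches to GGGCGG, some of which overlap each other, and in Cacna2d3 they are 4 such matches. The Cacng5 window held 2 matches to GGGCGG and the Scn9a window held none of the 4 motifs. GC content was 82.4% for Cacna2d1, 80.0% for Cacna2d3, 54.4% for Scn9a and 62.0% for Cacng5. Over all 32851 promoters, GGGCGG stood in 32.7% of windows of this length, the TATA box in 12.4%, the REST site letters in 5.73% and the cAMP response element in 1.55%. Of the 37 member promoters, 14 (37.8%) held GGGCGG. No window was compared with a binding or accessibility measurement here.

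Among the members tested between inhibitory and excitatory neurons, the α2δ genes had the 3 largest fold changes. Cacna2d1, which encodes α2δ-1, was measured at 33.5 and 39.4 CPM in inhibitory neurons and at 299 and 314 CPM in excitatory neurons. Both libraries placed the excitatory gate far above the inhibitory gate with no overlap, an 8.62-fold difference (log2 fold change -3.11 ± 0.06 SE, adjusted p = 1.16e-22, edgeR's quasi-likelihood test). Cacna2d2 (α2δ-2) went the other way, with 203 and 223 CPM in inhibitory against 106 and 108 in excitatory neurons (log2 0.96 ± 0.05, adjusted p = 1.53e-13). Cacna2d3 (α2δ-3), at 42.9 and 42.1 against 20.6 and 19.4 CPM, was also higher in inhibitory neurons (log2 1.04 ± 0.10, adjusted p = 1.45e-08). Of all α2δ UMIs, Cacna2d1 made up 11.9% and 12.9% in inhibitory neurons and 70.1% and 71.0% in excitatory neurons.

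Cacna2d1 also differed as a share of cells. With each cell thinned to 3000 UMIs, 9.11% of 944 and 9.37% of 1078 inhibitory neurons held a Cacna2d1 UMI, against 50.9% of 680 and 53.1% of 763 excitatory neurons. In mature oligodendrocyte-like cells, where the gene's level lay within the range of neuron reference genes, the thinned share was 3.50% of 572 and 4.08% of 588 cells, at median depths of 4184 and 4666 UMIs before thinning. Unthinned shares were 18.0% and 22.7% in inhibitory, 77.2% and 77.8% in excitatory, and 5.85% and 7.54% in these oligodendrocyte-like cells. The inhibitory gate thus had a share above the oligodendrocyte-like cells in both libraries and below the excitatory gate.

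In the same comparison, 3 of 7 tested sodium pore genes were higher and 2 lower in inhibitory neurons at an adjusted p under 0.05. Over all 13230 genes tested, 22.4% were called, 10.1% higher and 12.2% lower. Scn1a, which encodes Nav1.1, the main sodium channel of many fast-spiking interneurons, stood at 161 and 174 CPM in inhibitory against 101 and 112 in excitatory neurons (log2 0.61 ± 0.05, adjusted p = 1.22e-09). Scn8a (Nav1.6, a channel of the axon initial segment and nodes) stood at 174 and 161 against 117 and 117 (log2 0.47 ± 0.05, adjusted p = 1.34e-07). The groups did not overlap for either gene. Scn7a, which encodes a sodium-sensing channel relative, was low in both, at 9.36 and 10.8 against 6.30 and 4.62 CPM (log2 0.86 ± 0.20, adjusted p = 0.00303), with log2 0.52 when the library labelled female was left out. Scn9a (Nav1.7) was lower in inhibitory neurons, at 49.0 and 44.5 against 66.3 and 81.0 CPM (log2 -0.71 ± 0.08, adjusted p = 4.38e-07). Scn3a (Nav1.3) was lower as well (log2 -0.33). With Hcrt-high and Pmch-high neurons left out of the gates, Scn9a was at log2 -0.17 and no longer called (adjusted p = 0.214), Scn8a was at 0.17 and Scn1a at 0.34.

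Among sodium β genes, Scn2b (β2) and Scn3b (β3) were higher in inhibitory neurons, with log2 fold changes of 0.25 and 0.17. The gates did not overlap for either gene, and the inhibitory gate was the higher in both libraries.

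The calcium pore genes were close between inhibitory and excitatory neurons. Of 5 tested high-voltage pore genes, Cacna1b (Cav2.2, the N-type channel of presynaptic terminals) was lower in inhibitory neurons by the fit (log2 -0.20), although its libraries overlapped between gates at 113 and 122 against 122 and 139 CPM, and none was higher. The others lay between log2 -0.07 and -0.01. Of the 3 T-type genes, which encode channels that open near rest and support burst firing, Cacna1i (Cav3.3) was higher, at 56.8 and 55.2 against 38.1 and 43.3 CPM (log2 0.41 ± 0.08, adjusted p = 4.53e-04).

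Calcium β genes split. Cacnb4 (β4) was higher in inhibitory neurons, at 159 and 168 against 108 and 119 CPM (log2 0.49 ± 0.05, adjusted p = 6.11e-08), while Cacnb3 (β3; log2 -0.42) and Cacnb1 (β1; log2 -0.23) were lower. In the Cacng family, Cacng5 (γ5, log2 0.50) and Cacng7 (γ7, log2 0.31) were higher and Cacng4 (γ4, log2 -0.31) was lower. Each of these genes kept its direction in both libraries, although Cacnb1 was at log2 -0.13 without the library labelled male and Cacng5 at 0.32 without the one labelled female.

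In all, 32 of the 36 members passed the low-count filter in this comparison, and 12 were called higher and 7 lower in inhibitory neurons. Beside them, 10.1% of all genes were called higher and 12.2% lower. The members' median log2 fold change was 0.12, beside 0.01 over all genes. Cacna1s, Cacna2d4, Scn11a and Cacng1 did not pass the filter. With plain CPM scaling in place of trimmed-mean (TMM) factors, 14 members were higher and 6 lower, and over all genes 1942 were higher and 1378 lower, in place of 1342 and 1618.

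Each fit compared 4 sums from 2 libraries and had 1 residual degree of freedom. Its p-values therefore rest mostly on a spread pooled over genes, with 21.9 prior degrees of freedom in this comparison. The prior was infinite for Hcrt-high against other excitatory neurons, 11.6 for Pmch-high against the same neurons and 60.5 between the peptide gates. No spread beyond these 2 libraries enters any p-value. Overlap between gates was looked at for members only, in every comparison. A lack of overlap is therefore not read as particular to them. DESeq2 called 559 of all 13230 genes and 8 of the 19 members, among them Cacna2d1, Cacna2d2, Cacna2d3, Scn1a, Scn8a, Cacnb4 and Scn9a. Without the library as a block, 10 were called. After thinning 12 were called, and Cacna1b, Cacna1i, Cacnb1, Cacng5, Cacng7, Scn3b and Scn7a were not. Leaving Hcrt-high and Pmch-high neurons out of the gates ended the calls of Cacna1b, Cacng7 and Cacnb1 as well as that of Scn9a, and Cacna2d1 was then at -2.85.

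**Figure D1:**
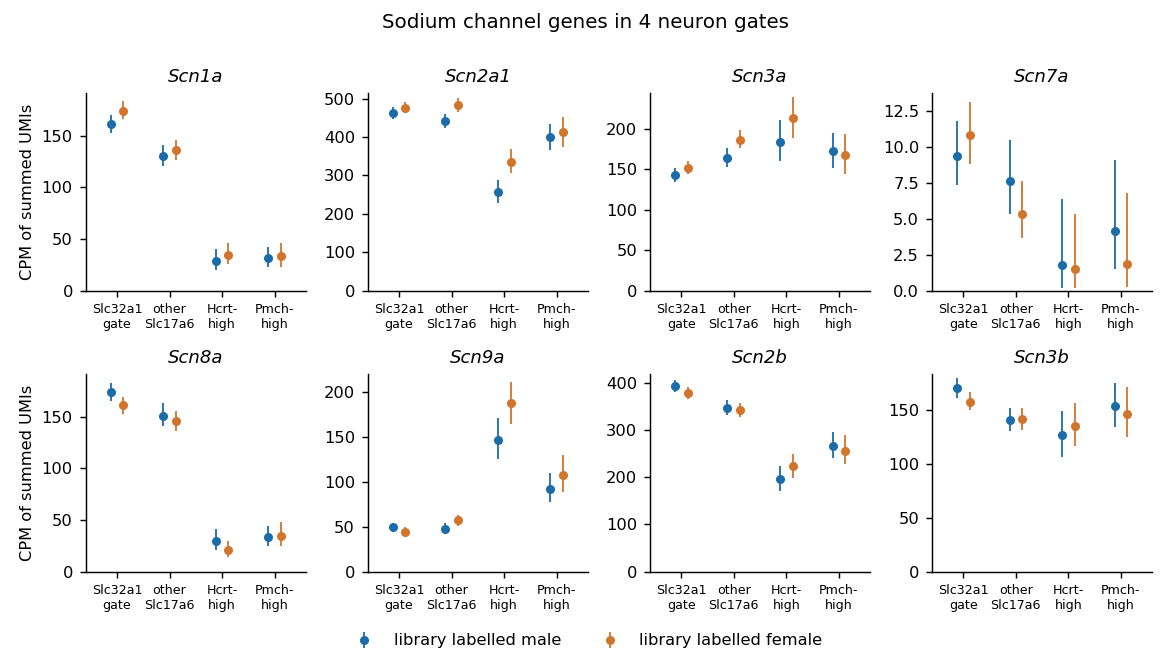
Levels of 8 sodium channel genes (CPM of summed UMIs, linear axes from 0) in the inhibitory (Slc32a1), other excitatory (Slc17a6), Hcrt-high and Pmch-high gates; each point is 1 library, with its 95% Poisson interval for counting error only. Scn1a and Scn8a fell from the first pair of gates to the peptide gates, while Scn9a stood at 146 and 187 CPM in Hcrt-high neurons.

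Hcrt-high neurons had low levels of several sodium channel genes. Scn8a was at 29.8 and 20.7 CPM in Hcrt-high neurons and at 151 and 146 CPM in the other excitatory neurons, with no overlap (log2 -2.32 ± 0.17, 5.01-fold lower, adjusted p = 2.01e-42). Scn1a was at 28.9 and 34.7 against 130 and 136 CPM (log2 -1.81 ± 0.16, adjusted p = 9.51e-29). Both genes were lower in each library by more than the libraries differed from each other.

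Scn9a rose where these fell. It was measured at 146 and 187 CPM in Hcrt-high neurons and at 47.5 and 56.9 CPM in other excitatory neurons, so that both Hcrt-high sums lay above both others (log2 1.92 ± 0.12, 3.80-fold, adjusted p = 3.17e-57). Scn9a made up 22.4% and 23.4% of sodium pore UMIs in Hcrt-high neurons and 4.92% and 5.48% in other excitatory neurons. Scn3a was also higher by the fit (log2 0.43), although its plain CPM overlapped at 184 and 213 against 164 and 186. Lower sodium pore genes further included Scn7a (log2 -1.72, from 4 UMIs in Hcrt-high neurons) and Scn2a1 (Nav1.2, log2 -0.39).

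Of the sodium β genes, Scn2b was lower in Hcrt-high neurons (log2 -0.47). Scn4b (β4, the subunit linked to resurgent sodium current) had 0 and 1 UMIs in Hcrt-high neurons against 40 and 35 in other excitatory neurons. Its ratio of CPM, other excitatory over Hcrt-high, was 17.6, with a 95% interval of 3.06 to 702 from counting error only.

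Of 5 tested high-voltage calcium pore genes, 0 were called in Hcrt-high neurons by edgeR and 0 by DESeq2, while 1, Cacna1b at log2 0.25, had an unadjusted p under 0.05 in edgeR. Over all 11828 genes tested, 41.0% were called, 21.2% higher and 19.8% lower. The log2 fold changes lay between -0.40 and 0.25. All 3 T-type genes were called by edgeR and 0 by DESeq2. Cacna1g (Cav3.1) was at 24.6 and 24.3 CPM in Hcrt-high neurons and at 51.2 and 51.9 in the others (log2 -0.83 ± 0.19, adjusted p = 1.10e-04), and Cacna1i was lower (log2 -0.61), while Cacna1h (Cav3.2) was at 30.7 and 29.5 against 17.5 and 24.2 CPM and was called higher (log2 0.77 ± 0.21, adjusted p = 0.00137). After thinning, Cacna1i (adjusted p = 0.333) and Cacna1h (adjusted p = 0.494) were no longer called, and Cacna1i was at log2 -0.36 without the library labelled female. Cacna1h shares 158 exon bases with Tpsg1 on the opposite strand.

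The auxiliary calcium genes moved in both directions. Cacna2d1 was higher still than in the other excitatory neurons, at 391 and 455 against 250 and 275 CPM (log2 0.94 ± 0.11, adjusted p = 2.21e-17), and Cacna2d3 was higher by the fit (log2 0.73). Cacna2d2 was at 41.2 and 40.6 against 120 and 123 CPM (log2 -1.32 ± 0.15, adjusted p = 2.90e-17). Cacnb4 was at 36.8 and 41.3 against 123 and 135 CPM (log2 -1.47 ± 0.15, adjusted p = 4.23e-21), whereas Cacnb1 (log2 0.75) and Cacnb2 (log2 0.52) were higher. Hcrt-high sums lay outside the range of the other excitatory sums for each of these genes.

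In the Cacng family, Cacng3 (γ3, a TARP) was at 108 and 91.5 CPM in Hcrt-high neurons and at 44.6 and 38.6 in the others (log2 1.51 ± 0.14, 2.84-fold, adjusted p = 1.26e-26). Cacng7, a TARP of another subtype, was lower at 37.7 and 42.1 against 89.2 and 101 CPM (2.01-fold lower, log2 SE 0.15, adjusted p = 7.95e-10), and Cacng2 (stargazin) was lower by less (log2 -0.36). Cacng5 had 1 and 2 UMIs in Hcrt-high neurons against 94 and 114. Its ratio of CPM, other excitatory over Hcrt-high, was 16.2, with an interval of 5.48 to 79.3 for counting error only.

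Taking all members, 8 of 32 tested were called higher and 15 lower in Hcrt-high neurons, beside 21.2% and 19.8% of all genes. The members' median log2 fold change was -0.38 beside -0.01 over all genes. DESeq2 called 1609 of all 11828 genes. It called 12 of the 23 members, among them Scn8a, Scn1a, Scn9a, Scn2b, Cacna2d1, Cacna2d2, Cacnb4, Cacnb1, Cacng3, Cacng5 and Cacng7. Cells thinned to 3000 UMIs gave 12 calls among the 21 that could still be fitted; Cacng5 was then at log2 -1.83 (adjusted p = 0.168), and Cacna1h, Cacna1i, Cacna2d3, Cacnb1, Cacnb2, Cacng2, Scn2b and Scn3a were not called either. The TMM factors moved all fold changes by 0.25 on the log2 scale relative to plain CPM. With plain CPM, 5 members were higher and 18 lower, Scn3a, Cacnb2 and Cacna2d3 were no longer called, and over all genes 1442 were higher and 3984 lower in place of 2513 and 2337. The 12 neuron markers used to name clusters summed to 6969.6 and 6707 CPM in Hcrt-high against 9113 and 9941 CPM in other excitatory neurons; their part in the member differences was not tested. Markers of mature oligodendrocytes, which also held Cacnb4 and Cacng7, summed to 918 and 1137 CPM in Hcrt-high and to 1326 and 1684 CPM in other excitatory neurons, with all 9 detected in both gates. Astrocyte markers summed to 259 and 287 against 514 and 552 CPM, with all 10 detected. Their part was not tested either.

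**Figure D2:**
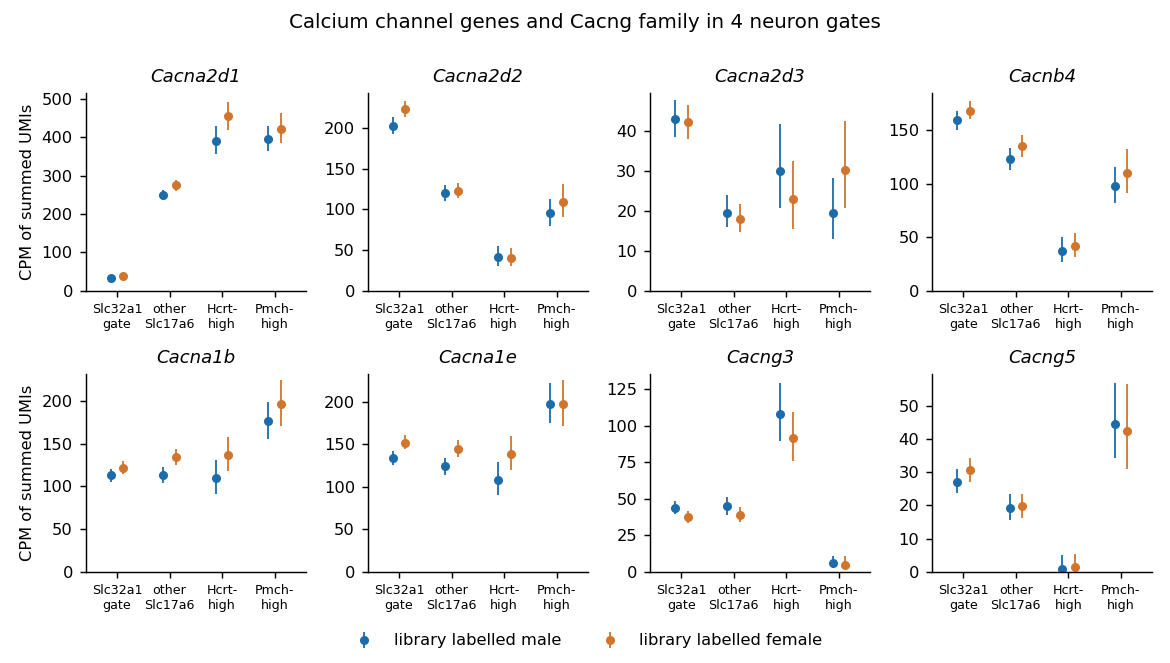
Levels of 8 calcium channel and Cacng genes (CPM of summed UMIs, linear axes from 0) in the same 4 gates, each point 1 library with its 95% Poisson interval for counting error only. Cacna2d1 went from 33.5 and 39.4 CPM in the inhibitory gate to 391 CPM or more in both peptide gates, and Cacng3 and Cacng5 stood at opposite ends in Hcrt-high and Pmch-high neurons.

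Pmch-high neurons were compared with the same other excitatory neurons, so this comparison and the last one share their control sums. Scn8a was at 33.4 and 34.8 CPM in Pmch-high neurons, against the 151 and 146 CPM of the controls (log2 -1.86 ± 0.13, 3.62-fold lower, adjusted p = 2.82e-07). Scn1a was at 31.3 and 33.0 against 130 and 136 CPM (log2 -1.78 ± 0.13, adjusted p = 5.25e-07). Both genes were lower in both libraries with no overlap.

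Scn9a was higher in Pmch-high neurons, at 91.9 and 107 against 47.5 and 56.9 CPM (log2 1.20 ± 0.12, adjusted p = 5.04e-06), but with cells thinned to 3000 UMIs its log2 fold change was 0.63 and it was no longer called. Scn4b had 1 and 1 UMIs in Pmch-high neurons against 40 and 35 in the controls, a ratio of CPM, controls over Pmch-high, of 8.79 with a 95% interval of 2.35 to 73.9 for counting error only. Scn3b was called higher (log2 0.37) and had 154 and 147 against 141 and 142 CPM.

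Of 5 tested high-voltage calcium pore genes, 2 were higher and 2 lower in Pmch-high neurons. Over all 11790 genes tested, 33.9% were called, 18.7% higher and 15.2% lower. Cacna1b was at 176 and 197 CPM in Pmch-high neurons against 113 and 134 in the controls (log2 0.87 ± 0.09, adjusted p = 8.72e-06). Cacna1e (Cav2.3, the R-type channel) was at 198 and 198 against 124 and 145 CPM (log2 0.84 ± 0.09, adjusted p = 1.70e-05). Cacna1a (Cav2.1, the P/Q-type channel) was lower at 63.3 and 56.5 against 109 and 89.4 CPM (log2 -0.46 ± 0.12, adjusted p = 0.0108), and Cacna1c (Cav1.2, L-type) was called lower at log2 -0.54 (adjusted p = 0.0457). After thinning, Cacna1a was at log2 -0.24 (adjusted p = 0.721) and Cacna1c at 0.30 (adjusted p = 0.762), and DESeq2 called neither. None of the 4 genes overlapped between gates. T-type genes Cacna1i (log2 -1.21) and Cacna1g (log2 -0.98) were lower, but after thinning they stood at -0.75 and -0.78 and were not called.

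Cacna2d1 was higher in Pmch-high neurons, at 396 and 423 against 250 and 275 CPM (log2 0.91 ± 0.08, adjusted p = 1.24e-06), and it was the only α2δ gene called. Cacnb3 was higher, at 91.2 and 105 against 75.8 and 75.9 CPM (log2 0.64 ± 0.11, adjusted p = 8.39e-04), and Cacnb1 was called higher (log2 0.47) with overlapping plain CPM. After thinning Cacnb3 was at log2 0.34 (adjusted p = 0.554), and neither gene was called then or by DESeq2. Cacnb4, at 97.4 and 110 against 123 and 135 CPM, was not called.

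Cacng3, higher in the Hcrt-high gate, was low here, with 8 and 5 UMIs, or 5.57 and 4.71 CPM, against 44.6 and 38.6 CPM (log2 -2.74 ± 0.28, 6.67-fold lower, adjusted p = 8.49e-06). Cacng5 was at 44.5 and 42.4 against 19.3 and 19.7 CPM (log2 1.43 ± 0.18, 2.69-fold, adjusted p = 5.08e-05), but after thinning, at log2 1.18, it was not called (adjusted p = 0.127). Cacng7 (log2 -1.09) and Cacng4 (log2 -0.86) were lower. Both libraries showed each of these directions.

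Of 32 members tested, 8 were higher and 12 lower in Pmch-high neurons, beside 18.7% and 15.2% of all genes. The members' median log2 fold change was -0.08 beside -0.02 over all genes. DESeq2 called 1398 of the 11332 genes it tested. It called 12 of the 20 members, among them Scn8a, Scn1a, Scn9a, Cacna2d1, Cacna1b, Cacna1e, Cacna1i, Cacng3, Cacng5 and Cacng7. After thinning, 10 of the 19 that could still be fitted were called, and Cacna1a, Cacna1c, Cacna1g, Cacna1i, Cacnb1, Cacnb3, Cacng4, Cacng5 and Scn9a were not. TMM factors moved fold changes by 0.27 relative to plain CPM. With plain CPM, 6 members were higher and 15 lower, Scn3b and Cacnb1 were no longer called, and over all genes 1231 were higher and 3626 lower in place of 2202 and 1794. Neuron markers summed to 7803 and 7525 CPM in Pmch-high against 9113 and 9941 CPM in other excitatory neurons, with all 12 detected, and astrocyte markers to 301 and 332 against 514 and 552 CPM, with all 10 detected. Those of mature oligodendrocytes, at 1705 and 1105 against 1326 and 1684 CPM, overlapped. Their part in the member differences was not tested.

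**Figure D3:**
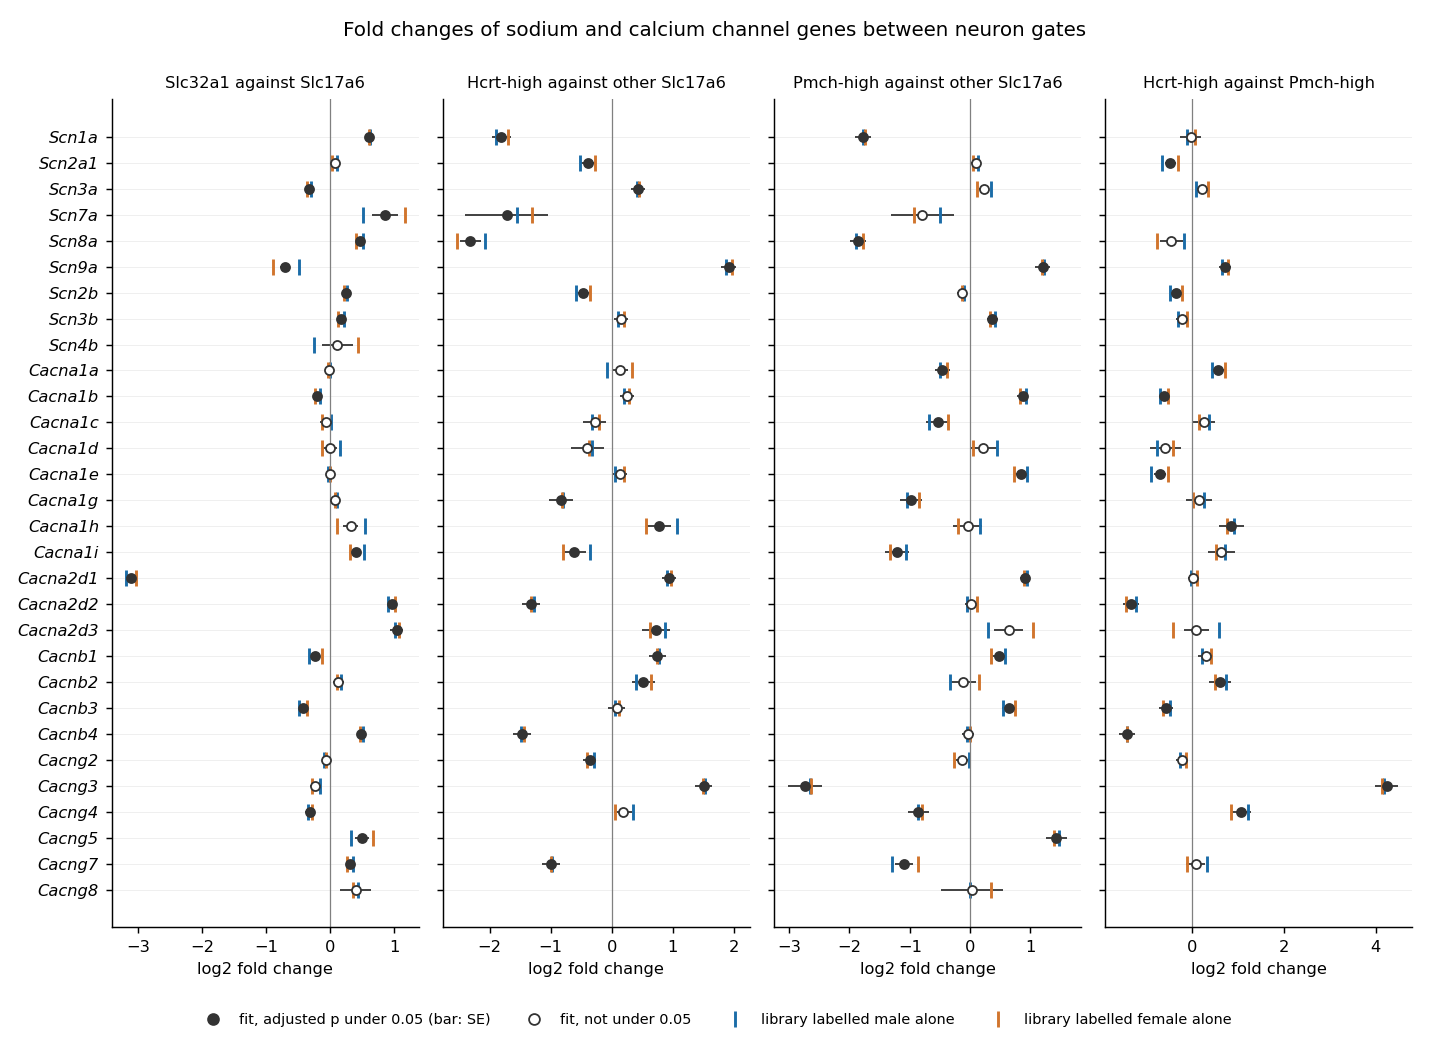
Fitted log2 fold changes (circles with SE, filled where the adjusted p was under 0.05) of members in the 4 comparisons, with the value of each library alone as a tick; members with 3 or fewer UMIs in a gate are left out. The x axes have different ranges. Cacna2d1 stands alone at -3.11 in the first comparison and Cacng3 at 4.24 in the last.

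In the direct comparison of Hcrt-high with Pmch-high neurons, Cacng3 and Cacng5 lay far apart in opposite directions. Cacng3 stood at 108 and 91.5 CPM in Hcrt-high and at 5.57 and 4.71 CPM in Pmch-high neurons (log2 4.24 ± 0.26, 18.9-fold, adjusted p = 1.42e-21). As a share of cells, 71.1% and 66.3% of Hcrt-high neurons held a Cacng3 UMI, against 6.98% and 6.56% of Pmch-high neurons. Thinned to 3000 UMIs, these shares were 31.5% of 73 and 26.0% of 73 cells against 1.30% of 77 and 1.85% of 54. In mature oligodendrocyte-like cells, at median depths of 4184 and 4666 UMIs, the thinned share was 0.874% of 572 and 0.340% of 588 cells. The gates were apart in both libraries, by count and by cell.

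Cacng5 showed the reverse, with 1 and 2 UMIs in Hcrt-high neurons and 64 and 45 in Pmch-high neurons. Its ratio of CPM, Pmch-high over Hcrt-high, was 36.3, with a 95% interval of 12.1 to 179 for counting error only. Cacng3 made up 31.1% and 29.2% of Cacng UMIs in Hcrt-high neurons and 2.04% and 1.79% in Pmch-high neurons, while Cacng5 made up 0.253% and 0.471% against 16.3% and 16.1%. Cacng4 was higher in Hcrt-high neurons as well, at 61.4 and 48.7 against 25.7 and 26.4 CPM (log2 1.07 ± 0.21, adjusted p = 3.57e-05).

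Auxiliary calcium genes also differed between the peptide neurons. Cacnb4 was at 36.8 and 41.3 CPM in Hcrt-high against 97.4 and 110 in Pmch-high neurons (log2 -1.42 ± 0.17, adjusted p = 1.82e-10). Cacna2d2 was at 41.2 and 40.6 against 95.3 and 109 CPM (log2 -1.33 ± 0.17, adjusted p = 1.10e-09). Cacnb3 was lower (log2 -0.56) and Cacnb2 higher (log2 0.62) in Hcrt-high neurons. For Cacna2d1 the log2 fold change was 0.03 and it was not called.

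Among pore genes, Cacna1e (log2 -0.70), Cacna1b (log2 -0.61) and Scn2a1 (log2 -0.47) were lower in Hcrt-high neurons, and Cacna1h (log2 0.86), Scn9a (log2 0.72) and Cacna1a (log2 0.57) were higher. Scn2b was lower (log2 -0.34). None of these called genes overlapped between the 2 gates, but overlap was not counted over all genes, so this is not read as particular to members. After thinning Cacnb3 was at log2 -0.07, Cacna1b at -0.30, Cacna1a at 0.40 and Scn2b at -0.41, and these 4 were no longer called. Only 12 of the 15 called members could be fitted then, and Cacna1h, Cacnb2 and Cacng5 could not. Without the library labelled male Scn2a1 was at log2 -0.31 and Scn2b at -0.21.

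In total 7 of 28 tested members were higher and 8 lower, where 33.5% of 9685 genes were called, 16.0% higher and 17.4% lower. Members' median log2 fold change was 0.06, beside 0.01 over all genes. DESeq2 called 849 of all 9685 genes and 4 of the 15 members, namely Cacng3, Cacng5, Cacnb4 and Cacna2d2. Scn7a, Scn4b and Cacng8 were among the members that failed the filter here in addition to the 4 that failed it elsewhere.

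Partners of these channels were read from a list of 29 genes for scaffolds, release-site proteins and channel regulators. Between inhibitory and excitatory neurons, 6 of 28 tested were higher and 3 lower, beside 22.4% of all genes called, with a median log2 fold change of 0.05. Gem, a small GTPase that inhibits calcium channels through the β subunit, was at 2.02 and 2.12 against 4.98 and 10.3 CPM (log2 -1.94 ± 0.28, adjusted p = 1.02e-05). That excitatory gate also held cells of the Hcrt-high gate, and in the other excitatory neurons Gem was at 2.06 and 5.69 CPM. In Hcrt-high neurons 7 of 27 were higher and 8 lower against other excitatory neurons, beside 41.0% of all genes, with a median of -0.05. Stac, an adaptor of L-type channels, was at 37.7 and 39.1 against 1.85 and 3.62 CPM (log2 4.01 ± 0.29, adjusted p = 4.01e-40). Gem at 19.3 and 42.8 CPM (log2 3.24) and Rrad, a GTPase of the same family, at 49.1 and 88.5 against 8.63 and 11.9 CPM (log2 3.00) were higher too, with each Hcrt-high sum above each control sum. Fgf11, a fibroblast growth factor homologous factor that binds sodium channels, had 3 UMIs in Hcrt-high against 170 in the control sums, a ratio of CPM of 13.3 (interval 4.46 to 65.0).

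In Pmch-high neurons 6 of 27 partners were higher and 8 lower against the same controls, beside 33.9% of all genes, with a median of -0.13. Rimbp2 and Rims1, scaffolds that tether calcium channels at release sites, were at 132 and 141 against 48.7 and 53.5 CPM (log2 1.69 ± 0.11, adjusted p = 1.14e-07) and at 170 and 171 against 57.1 and 72.1 CPM (log2 1.68 ± 0.11, adjusted p = 1.24e-07). Cabp1, a calcium-binding regulator of calcium channels, was lower (log2 -1.91), and Stac2 had 3 UMIs against 111, a ratio of CPM of 8.67 (interval 2.89 to 42.7). Directly compared, 7 of 25 partners were higher and 7 lower in Hcrt-high than in Pmch-high neurons, beside 33.5% of all genes, with a median of -0.06. Stac had 96 UMIs in Hcrt-high and 1 in Pmch-high neurons, a ratio of CPM of 96.1 (interval 16.8 to 3836), and Rrad was at 49.1 and 88.5 against 3.48 and 1.88 CPM (log2 4.50 ± 0.34, adjusted p = 8.28e-18).

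A second list held 9 AMPA receptor genes, 4 pore subunits and 5 auxiliary genes outside the Cacng family. It gave 2 higher and 2 lower genes between inhibitory and excitatory neurons (median log2 0.03), 2 and 4 in Hcrt-high neurons (median 0.00), 3 and 3 in Pmch-high neurons (median -0.15), and 4 and 4 of 8 tested between the peptide gates (median 0.06), where over all genes 22.4%, 41.0%, 33.9% and 33.5% were called. Shisa6, an auxiliary AMPA receptor protein, was at 141 and 125 CPM in Hcrt-high, 11.1 and 9.32 in other excitatory and 5.57 and 2.83 in Pmch-high neurons (log2 4.89 ± 0.26 in the direct comparison, adjusted p = 5.11e-25). Between Hcrt-high and Pmch-high neurons, Gria3 was lower (log2 -1.68 ± 0.16, adjusted p = 2.30e-13) at 34.2 and 48.7 against 135 and 129 CPM, Shisa7 was lower (log2 -1.69) and Gria1 higher (log2 1.20). Nothing particular to either list is read from these counts.

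Few members exceeded their neuron level in a non-neuronal class in both libraries: of 36, 1 did in the mature oligodendrocyte-like class, 3 in the newly formed oligodendrocyte-like and 3 in the precursor-like class, 1 in astrocyte-like, 2 in microglia-like and 2 in mural-like cells, and 0 in endothelial-like and fibroblast-like cells. Some of these counts rest on very few UMIs, as for Cacna2d4 in the newly formed class and Cacna1s in microglia-like cells. Cacna1s had only 10 and 21 UMIs over all barcodes. The classes were described only, since the clusters were made from these same cells, with 2 members among the 2000 variable genes used. As a measure of neuron RNA in other droplets, 13 neuron reference genes, such as Snap25 and Syt1, were read in each class as a percentage of their neuron level. In mature oligodendrocyte-like cells (615 and 610 cells), these had medians of 4.72% and 5.95%, and none was above 13.7%. Scn2a1 there was at 3.64% and 4.12% of its neuron level, and Cacna2d1 at 8.91% and 10.1%, inside the range of the reference genes. How many of all genes exceeded the reference genes, or their own neuron level, was not counted. Counts of members on either measure are therefore not read as particular to the members.

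Mature oligodendrocyte-like cells were the only named class with Cacna2d4 (α2δ-4, known from retina) above the neuron level with counts over 10 UMIs. It had 74 and 72 UMIs, or 26.7 and 23.2 CPM, against 0.985 and 0.643 CPM in neurons, and the counting intervals were 21.0 to 33.5 and 18.2 to 29.3 CPM. Cacnb4 was at 114 and 125 CPM against 133 and 144 in neurons, or 85.5% and 86.6% of the neuron level. Cacng7 was at 65.3 and 58.7 against 83.0 and 97.4 CPM. In all, 7 of 36 members, namely Cacnb4, Cacna2d4, Cacng7, Cacnb1, Cacnb3, Scn8a and Cacna1h, were above every reference gene's percentage in both libraries.

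Oligodendrocyte precursor-like cells (81 and 97 cells) stood above neurons for Cacng4, Cacng7 and Cacng8, all TARP genes, the last from only 3 and 2 UMIs. Cacng4 was at 939 and 844 CPM there against 48.5 and 48.7 in neurons, or 1934% and 1734% of the neuron level. The counting intervals, 809 to 1083 and 734 to 967 CPM, did not reach the level of any other class. A Cacng4 UMI was found in 87.7% and 85.6% of precursor-like cells at median depths of 2298 and 2451 UMIs, and in 0.976% and 3.61% of mature oligodendrocyte-like cells at greater depth.

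In newly formed oligodendrocyte-like cells (68 and 89 cells) Cacng4 was at 172 and 114 CPM and in mature ones at 2.16 and 8.07 CPM, so that the 3 classes did not overlap. Cacng7 was at 156 and 166 CPM in precursor-like, 99.7 and 103 in newly formed and 65.3 and 58.7 in mature cells, in the same order. Scn3a was at 141 and 166 CPM in precursor-like cells, close to the 158 and 171 CPM of neurons, and at 6.13 and 7.42 in mature cells. Scn3a counts in precursor-like cells were 28 and 41 UMIs. In the precursor-like class 17 of 36 members lay above every reference gene, whose highest values were 31.2% and 28.7% of the neuron level. Some were only just above, such as Cacna2d2 at 32.6% and 30.9%.

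In the other classes fewer members lay above every reference gene, 6 of 36 in astrocyte-like and 5 of 36 in endothelial-like cells. Astrocyte-like cells held Cacng4 at 99.4% and 77.9% of its neuron level, where reference genes reached 26.3% and 29.2%. Endothelial-like cells held Cacna1a at 36.6% and 35.7%, where reference genes reached 13.6% and 16.4%. In astrocyte-like cells (118 and 188 cells) Cacna1d (Cav1.3, L-type) was at 27.6 and 24.7 CPM against 16.8 and 23.2 in neurons, from 8 and 13 UMIs with intervals of 11.9 to 54.3 and 13.1 to 42.2 CPM that reach the neuron level. Cacna1d shares 589 exon bases with Chdh on the opposite strand, and whether counting used the strand is not given in the sources used here. Whether Chdh reads from those shared bases entered the Cacna1d count was not tested. In microglia-like cells (68 and 33 cells, in 2 clusters of which 1 was led by Cd74 and other antigen presentation genes) 4 of 36 members lay above every reference gene in both libraries. These were Cacna1s, Cacna1d, Scn4b and Cacng4, each from few UMIs. In mural-like cells (9 and 30 cells, led by the smooth muscle genes Acta2 and Myh11) Cacna1c was at 149 and 76.0 CPM from 4 and 10 UMIs, against 33.7 and 42.2 in neurons. These cells also held much neuron RNA, with reference genes at up to 74.0% and 77.1% of their neuron level. Of the endothelial-like class no member exceeded the neuron level in both libraries, and of the fibroblast-like class (23 and 33 cells) none exceeded every reference gene.

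**Figure D4:**
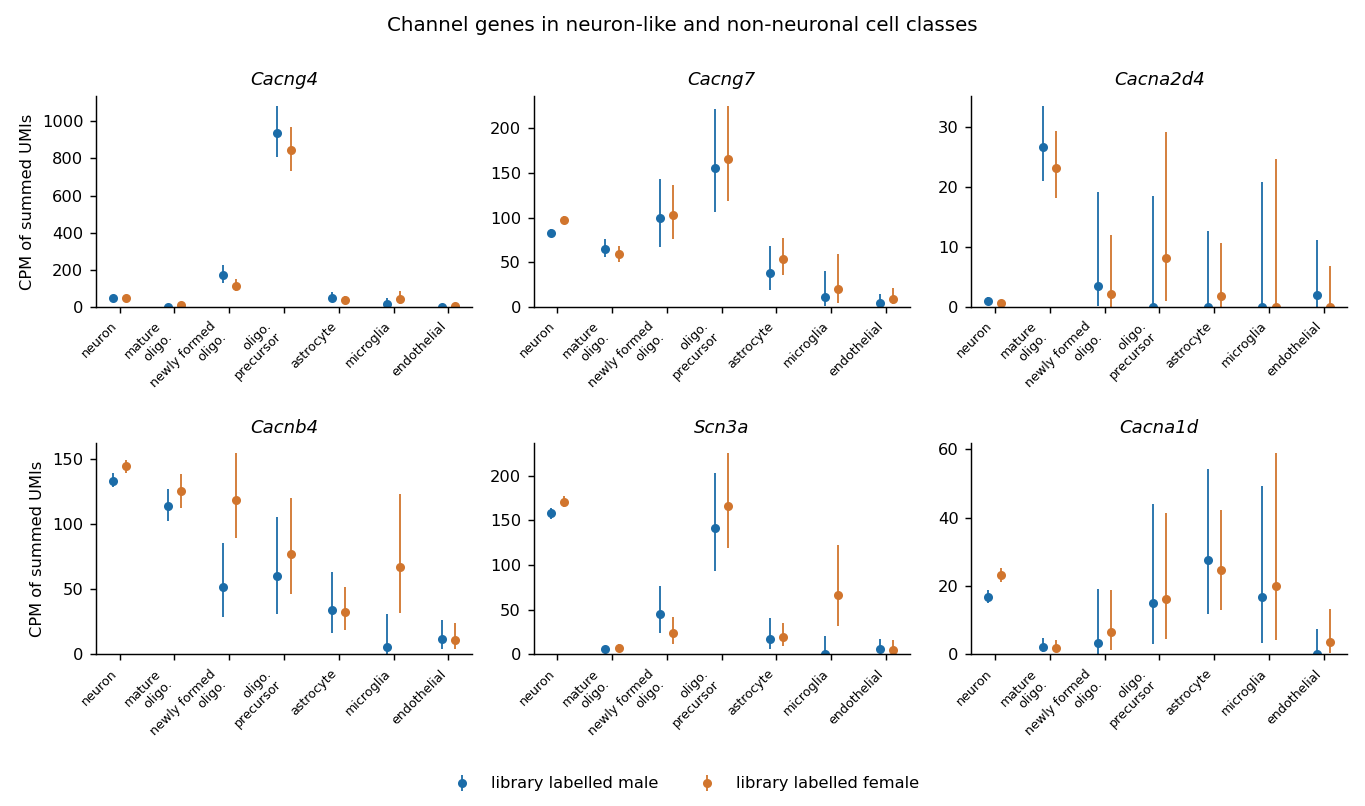
Levels of 6 members (CPM of summed UMIs, linear axes from 0) in neuron-like cells and 6 non-neuronal classes, each point 1 library with its 95% Poisson interval for counting error only. Cacng4 peaked in precursor-like cells at 939 and 844 CPM, and Cacna2d4 in mature oligodendrocyte-like cells at 26.7 and 23.2 CPM.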

How the data were processed

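Droplet libraries were aligned and counted by the authors with Cell Ranger 2.2.0 on mm10 (GRCm38), per the submitters' processing notes, and the deposited matrices hold UMI counts per gene and barcode with no further scaling; whether counting used the strand is not given in the sources used here. Cells with under 500 genes or over 20% mitochondrial UMIs were removed (163 barcodes in each library), then 95 and 115 likely doublets by score (Scrublet in scanpy 1.11.5, as many as the expected rate for the number of barcodes). Cells were clustered by the Leiden method (leidenalg 0.10.2, 2000 variable genes, 30 components, 15 neighbours) into groups named from marker lists. UMIs were summed per library and gate. edgeR 4.0.16 (quasi-likelihood test, filterByExpr, TMM, Benjamini-Hochberg adjustment over all genes tested, called at 0.05) was fitted with the library as a block: both gates of a pair come from the same cell suspension, so the library pairs them. DESeq2 1.42.0 was an alternative. Members and lists were chosen with earlier results of these data known. In each comparison every called member was named, except 2 members that are not reported here. On simulated counts for the inhibitory against excitatory comparison (13230 genes), the fit recovered 74.0% of genes changed 1.5-fold and 84.0% of those changed 2-fold, and for Hcrt-high against Pmch-high neurons (9685 genes) 22.0% and 66.0%. False calls numbered 0 in the first simulation and 7 in the second. Every simulated gene had the same dispersion, estimated from these sums, so recovery of genes with a larger spread was not measured. Intervals are exact Poisson or conditional binomial at 95% and cover counting error only. Of the members, 11 share exon bases with other annotated genes, 12 of 13 such overlaps lying on the opposite strand, and are uncertain to that extent (Cacna1a, Cacna1d, Cacna1h, Cacna1s, Cacna2d2, Cacnb1, Cacnb2, Cacnb4, Cacng2, Cacng8 and Scn9a).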

Additional observations from a re-analysis of the deposited data

Results flagged for a closer look

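The gamma-family genes Cacng3 and Cacng5 were called in opposite directions in Hcrt-high and Pmch-high neurons against the same other excitatory neurons, and each also differed in the direct comparison of the peptide gates. Cacng3 was higher in Hcrt-high than in Pmch-high neurons by a log2 fold change of 4.24 (edgeR's adjusted p = 1.42e-21), in both libraries. For Cacng5 the ratio of CPM, Pmch-high over Hcrt-high, was 36.3 (edgeR's adjusted p = 1.21e-14), but the Hcrt-high sums held only 3 UMIs, and the gene could not be fitted once cells were thinned.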

How the results depend on the processing

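Fewer members were called by DESeq2 and with cells thinned to 3000 UMIs. DESeq2 called 8 members between inhibitory and excitatory neurons (6 higher, 2 lower), 12 in Hcrt-high (4 and 8) and 12 in Pmch-high neurons (5 and 7), and 4 between the peptide gates (1 and 3). Over all genes DESeq2 called 559 of 13230, 1609 of 11828, 1398 of 11332 and 849 of 9685 in that order. Thinning gave 12 (7 higher), 12 (3 and 9), 10 (4 and 6) and 7 (3 and 4). Calls over all genes after thinning were not counted. With no replicate block, inhibitory against excitatory neurons gave 10 (7 and 3); the count moved by less than 1.5 times in the other comparisons, and of the 77 calls 65 were kept. Plain CPM scaling, chosen after seeing the data, gave 5 higher members in Hcrt-high neurons. Of single members, only Cacna1c in Pmch-high neurons changed direction, to 0.30 after thinning. RLE factors, no doublet removal and clusters made without members each kept all 77 calls, no low-count filter kept 76, and 1% peptide gates kept 57 of 58. Calls kept under every alternative with a test numbered 7 of 19 in inhibitory against excitatory neurons, 9 of 23 in Hcrt-high, 9 of 20 in Pmch-high and 4 of 15 between the peptide gates. Each library alone gave the direction of the fit for all 77 calls, but in 8 calls leaving out a library moved the log2 value by over 1.5 times, among them Scn4b, from -3.78 to -2.21 in Hcrt-high and from -2.86 to -1.84 in Pmch-high neurons without the library labelled male. The peptide gates rest on few cells, 83 and 83 Hcrt-high and 86 and 61 Pmch-high, and a member with 3 or fewer UMIs there was given as a ratio with its interval.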
